A study of Mus musculus with 12 samples.

Results

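Cortex given a virus that expresses the transthyretin gene Ttr was set against cortex given a virus with a short hairpin RNA against Ttr, the 2 arms of the study that were designed to move Ttr in opposite directions. The 8 libraries of these 2 groups, 4 each, were taken from the 12 libraries of the series by their labels, and every gene that passed an expression filter was compared (18289 of 55401). The remaining 4 libraries, from a virus with green fluorescent protein (GFP) alone, entered the estimate of the spread between libraries and show where tissue with a virus but no Ttr cassette lay. All 12 are labelled as male C57BL/6J prefrontal cortex at an age of 14 weeks, 4 weeks after bilateral injection of an adeno-associated virus into the dorsomedial prefrontal cortex.

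The overexpression vector was pAAV-CAG-GFP-P2A-Ttr-WPRE.bgH, in which the broadly active CAG promoter drives GFP and Ttr as a single transcript. In the knockdown vector the U6 promoter drives a hairpin that the labels call Ttr-shRNA-2, and CAG drives GFP followed by a WPRE3 element. The control vector was pAAV.1-CAG-GFP. Both Ttr vectors were made to order by a single core facility and the control vector came from Addgene, so the source cannot be told apart from Ttr when controls are read, but it is shared by overexpression and knockdown. The 2 Ttr vectors also differ in their hairpin cassette and in their regulatory element (WPRE or WPRE3), which cannot be told apart from the level of Ttr. CAG acts in neurons and glia alike, a single hairpin was used, and the labels do not say whether each library came from a mouse of its own, so the p-values describe how far the libraries of a group scatter, which may be in part technical scatter.

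Transthyretin is a carrier of thyroid hormone and, together with retinol-binding protein, of retinol, and the choroid plexus is its main source in the brain. Immediate early genes are transcription factors and synaptic proteins whose RNA appears within minutes of neuronal activity. Interferon-stimulated genes are switched on by interferon, and many encode antiviral proteins. Class II genes of the major histocompatibility complex present peptides to helper T cells and depend on the coactivator CIITA. In bulk tissue, fewer cells of a type and less RNA per cell cannot be told apart.

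Immediate early, interferon-stimulated and class II genes are known for shared promoter elements, so a promoter of each of these 3 groups is printed, from RefSeq on GRCm38.p6, 250 bases before to 50 after a listed start. Nr4a1 (chr15:101266596-101266895, plus strand), the gene with the smallest p after Ttr, has 4 copies of TGCGTCA, a variant of the cyclic AMP response element. Ifit1 (chr19:34640639-34640938, plus strand), an antiviral gene, has 2 copies of the core of the interferon-stimulated response element, GAAANNGAAA, here as its reverse complement. H2-Aa (chr17:34287774-34288073, minus strand), a class II chain, has a cyclic AMP response element, TGACGTCA, and the core of the Y box, TGATTGG. Capitals mark these motifs.
Nr4a1: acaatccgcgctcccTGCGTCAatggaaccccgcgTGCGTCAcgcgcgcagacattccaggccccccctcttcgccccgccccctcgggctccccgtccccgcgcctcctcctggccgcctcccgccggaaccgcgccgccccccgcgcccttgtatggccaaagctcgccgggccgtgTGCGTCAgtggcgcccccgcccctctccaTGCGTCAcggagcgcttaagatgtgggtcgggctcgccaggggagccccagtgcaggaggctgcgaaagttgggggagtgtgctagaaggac
Ifit1: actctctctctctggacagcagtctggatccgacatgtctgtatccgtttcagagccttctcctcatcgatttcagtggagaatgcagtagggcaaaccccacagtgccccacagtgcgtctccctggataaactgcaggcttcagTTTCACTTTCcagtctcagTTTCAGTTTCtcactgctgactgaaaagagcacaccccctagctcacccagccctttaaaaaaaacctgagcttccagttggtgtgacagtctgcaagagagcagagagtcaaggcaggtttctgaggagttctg
H2-Aa: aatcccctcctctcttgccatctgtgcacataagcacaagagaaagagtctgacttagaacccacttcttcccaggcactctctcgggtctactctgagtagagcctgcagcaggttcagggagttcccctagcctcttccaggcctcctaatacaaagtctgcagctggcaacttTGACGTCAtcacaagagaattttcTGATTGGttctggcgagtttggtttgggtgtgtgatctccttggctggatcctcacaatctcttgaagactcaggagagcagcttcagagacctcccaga

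Both strands of all 32817 RefSeq promoters of this length, which belong to 26994 genes, were searched, and a gene counted if any of its promoters held the motif. The response element core was in 18 of the 30 interferon-stimulated genes with a promoter (60%), against 3.98% of all genes and 3.43% of all promoters. The Y box core was in 5 of 7 class II genes (71.4%), against 8.97% of genes and 7.8% of promoters. TGCGTCA was in 2 of 22 immediate early genes, Fosb and Nr4a1 (9.09%), against 2.42% of genes and 2.11% of promoters. TGACGTCA was in 3 of those 22 genes (13.6%), against 2.03% of genes and 1.79% of promoters. Of the 7 class II genes it was in 1 (14.3%), H2-Aa itself, whose promoter is printed. A site can match only 1 of these 2 forms, since their letters differ. The interferon response core was in 4 of the 22 immediate early genes (18.2%), more than either cyclic AMP form, and the CArG box in 1 (4.55%, against 1.81% of genes). All are matches of letters and were not tested as binding sites.

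The labels name brain tissue, and markers of its cell types were present in all 8 libraries. Slc17a7, the vesicular glutamate transporter of cortical excitatory neurons, had a median of 1367 TPM (a level corrected for gene length) with overexpression and 1302 TPM with knockdown, and Gad1, of inhibitory neurons, 232 and 222 TPM. Cldn5 of endothelial cells (62.2 and 60.3 TPM), Aqp4 of astrocytes (66.0 and 61.2 TPM), Mbp of oligodendrocytes (1045 and 1026 TPM) and P2ry12 of microglia (53.5 and 48.2 TPM) had near-equal medians, and the ranges of the 2 groups overlapped for each of these 6 genes. Libraries had 19879629 to 34606413 counts.

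Some libraries stood apart and are named before the results that rest on them. Knockdown 4 had the highest interferon score and overexpression 4 the highest class II score of the 12 libraries. Knockdown 1 and 3 carried Xist, the RNA of the inactive X chromosome, at 15.6 CPM each (counts scaled to a common library size with TMM factors), against 0.435 and 2.35 CPM in knockdown 2 and 4 and 0.488 to 0.917 CPM in overexpression. Y-linked Ddx3y was 62.3 to 80.8 CPM in all 8 libraries, these 2 included, and the labels call all mice male. Xist overlaps its antisense gene Tsix, and the strand setting of the counting is not known. The origin of the Xist reads was not tested.

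Ttr was the only 1 of 18289 genes (0.00547%) to pass the edgeR quasi-likelihood test at an adjusted p below 0.05. It did not pass with limma-voom (adjusted p = 0.713) or with a robust prior in edgeR (adjusted p = 0.355). Its locus on chromosome 18 (ENSMUSG00000061808) spans 20665280 to 20674321 on GRCm38, plus strand. Its levels were 639, 261, 260.1 and 94.2 CPM in overexpression 1 to 4 and 0.146, 1.86, 0.827 and 0.663 CPM in knockdown 1 to 4. The lowest overexpression library thus lay far above the highest knockdown library, and overexpression libraries differed among themselves by several fold. Ttr rose by 8.42 ± 0.91 (SE) on the log2 scale in overexpression against knockdown (edgeR adjusted p = 0.00774), with means of 314 ± 231 and 0.873 ± 0.718 CPM (SD, n = 4). In controls it was 0.58, 8.49, 0.491 and 0.781 CPM, within or above the knockdown range, so a reduction by the hairpin is not shown by this contrast. Reads of the vector's Ttr and of the mouse gene were not separated. The call was lost without knockdown 1, 2 or 3, where the log2 difference was 8.13, 9.04 and 8.36 and the edgeR adjusted p 0.0929, 0.0641 and 0.0927.

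Below Ttr the difference was spread thinly. At an unadjusted edgeR p below 0.05, 508 genes (2.78% of those tested) were higher and 424 (2.32%) lower in overexpression, and 225 (1.23%) and 208 (1.14%) had libraries that did not overlap between the groups. Over all genes 9161 differences were positive and 9128 negative, with a median of 0.0002 on the log2 scale. Of the 508 higher genes the control mean lay between the 2 groups for 318, below both for 149 and above both for 41, and it was nearer to knockdown for 340. Of the 424 lower genes it lay between them for 292, below both for 121 and above both for 11, and it was nearer to overexpression for 291. These genes were picked for a difference between the groups, which by itself favours a control mean between them. The position of the control mean was not tested.

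**Figure D1:**
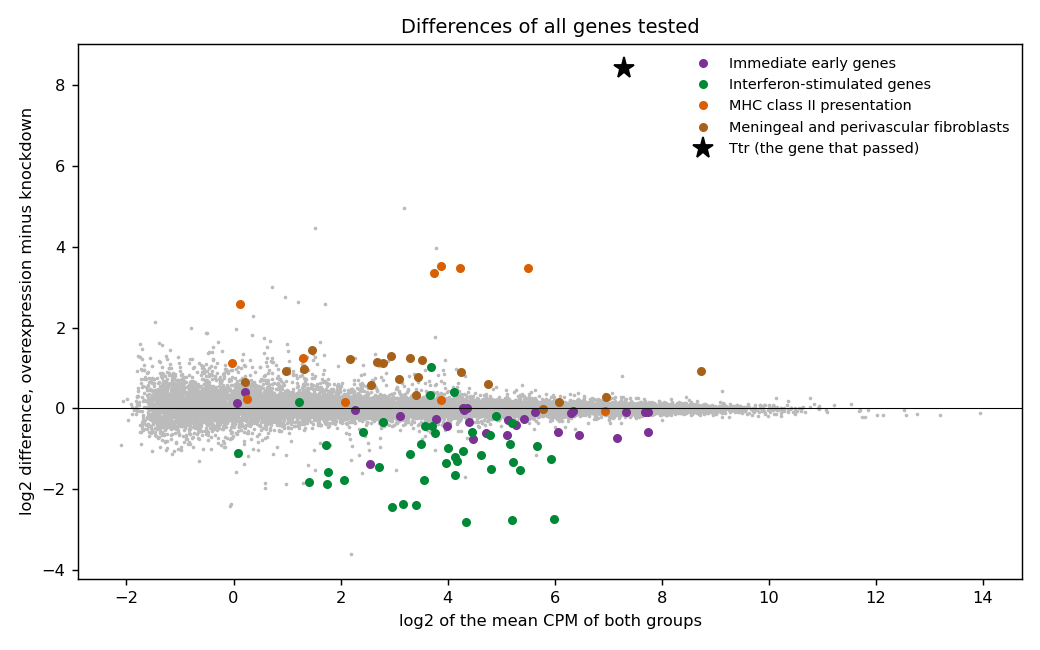
Log2 difference between overexpression and knockdown (vertical axis) against the log2 mean CPM of both groups (horizontal axis) for all genes tested (grey points), with members of 4 lists in colour and Ttr as a star. Ttr stands at 8.42, most class II and meningeal genes lie above 0, and most interferon-stimulated and immediate early genes lie below 0.

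Genes of neuronal activity had mostly lower values in overexpression than in knockdown. Of 27 immediate early genes listed and tested, 23 had negative and 4 positive differences. Lower at an unadjusted edgeR p below 0.05 were 10 (beside 2.32% of all genes), and 0 were higher (beside 2.78%). With the edgeR quasi-likelihood test 0 passed adjustment, with DESeq2 1 did (Nr4a1) and with limma-voom 0. Nr4a1 also passed with the edgeR likelihood ratio test, and with the quasi-likelihood test without knockdown 4. Their median was -0.26 on the log2 scale, beside 0.0002 over all genes. Libraries of the groups did not overlap for 2 of the 27 (7.41%, against 1.14% of all genes in that direction), Nr4a1 and Fosl2.

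Nr4a1 (ENSMUSG00000023034), an orphan nuclear receptor and a rapid target of activity, was 74.2, 63.6, 56.5 and 76.2 CPM in overexpression 1 to 4 and 121, 113, 113 and 80.1 CPM in knockdown 1 to 4. Knockdown 4 was the lowest of its group and only just above overexpression 4. The difference was -0.66 ± 0.13 on the log2 scale (edgeR unadjusted p = 0.000155, adjusted p = 0.855), and controls at 45.3 to 56.1 CPM lay below both groups. Fosl2, an AP-1 subunit, was 35.3, 28.3, 33.8 and 35.6 CPM against 41.9, 48, 43.6 and 42.9 CPM, so that every knockdown library exceeded every overexpression library (-0.41 ± 0.09). Egr2, an early growth response factor, was 3.6, 1.59, 2.36 and 5.73 CPM against 10.2, 9.92, 8.59 and 5.05 CPM. Overexpression 4 exceeded knockdown 4 for this gene, and the difference of -1.37 ± 0.32 was the most negative of the list. Nr4a3, a relative of Nr4a1, was 34.7, 21.8, 26 and 24.8 CPM against 48.3, 50.1, 41.2 and 30.8 CPM (-0.67 ± 0.17).

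Other members followed with wider overlap. Egr1 was 175, 174, 131 and 205 CPM in overexpression and 313, 288, 260 and 173 CPM in knockdown (-0.60). Arc, a synaptic protein of plasticity, was 106, 81, 81.5 and 163 CPM against 224, 208, 176 and 111 CPM (-0.74). Fos, the classic activity marker, was 18.1, 8.9, 9.99 and 29.5 CPM against 37.8, 35, 24.9 and 14.3 CPM (-0.76). For each of these 3 genes overexpression 4 was the highest of its group and knockdown 4 the lowest of its own, so that these libraries crossed. Egr4 (-0.60), Fosb (-0.45) and Junb (-0.60) were the other members with an unadjusted p below 0.05. Jun and Jund, which are abundant at rest, had differences of -0.10 each. Egr3 (-0.09) and Nr4a2 (-0.26), of the same families as Egr2 and Nr4a1, overlapped between the groups.

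Per1, a clock gene that also responds to activity and glucocorticoid, had 71.6, 70.2, 60.9 and 71.5 CPM against 111, 103, 103 and 73.2 CPM, without overlap (-0.51). The list of glucocorticoid receptors and targets that holds it had a median of 0.02 over 16 genes, 8 positive and 8 negative. Spry4, Dusp5 and Dusp6, feedback inhibitors of MAP kinase signalling, had differences of -0.37, -0.49 and -0.28, and 11 of 14 such genes were negative (median -0.07). Klf10, a transforming growth factor target, was 36.8 to 48.2 CPM against 44.8 to 62.8 CPM (-0.51). Nfil3, a transcriptional repressor linked to the clock, was 8.45 to 10.1 CPM against 10.8 to 13.7 CPM, without overlap (-0.41).

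Without overexpression 4 and knockdown 4 the immediate early median was -0.43 and 15 of 27 members were lower at an unadjusted p below 0.05. In that subset, chosen after the data were seen, Egr4, Nr4a1, Egr1, Egr2 and Ifi27 passed adjustment beside Ttr (edgeR). The median stood at -0.08 without knockdown 1, and at -0.18 with 6 lower members without knockdown 1 and 3. Control libraries had early gene scores from -0.36 to -0.14 (mean of centred log2 CPM over the list), overexpression from -0.24 to 0.29 and knockdown from 0.03 to 0.48. Overexpression 4 thus scored above knockdown 3 and 4, at 0.23 and 0.03, and below knockdown 1 and 2. In all 4 knockdown libraries the median member stood above the control mean, by 0.54, 0.74, 0.39 and 0.23 on the log2 scale. In overexpression 1 to 4 these medians were 0.22, 0.09, 0.05 and 0.46. The hour of tissue collection is not given in the sources used here.

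**Figure D2:**
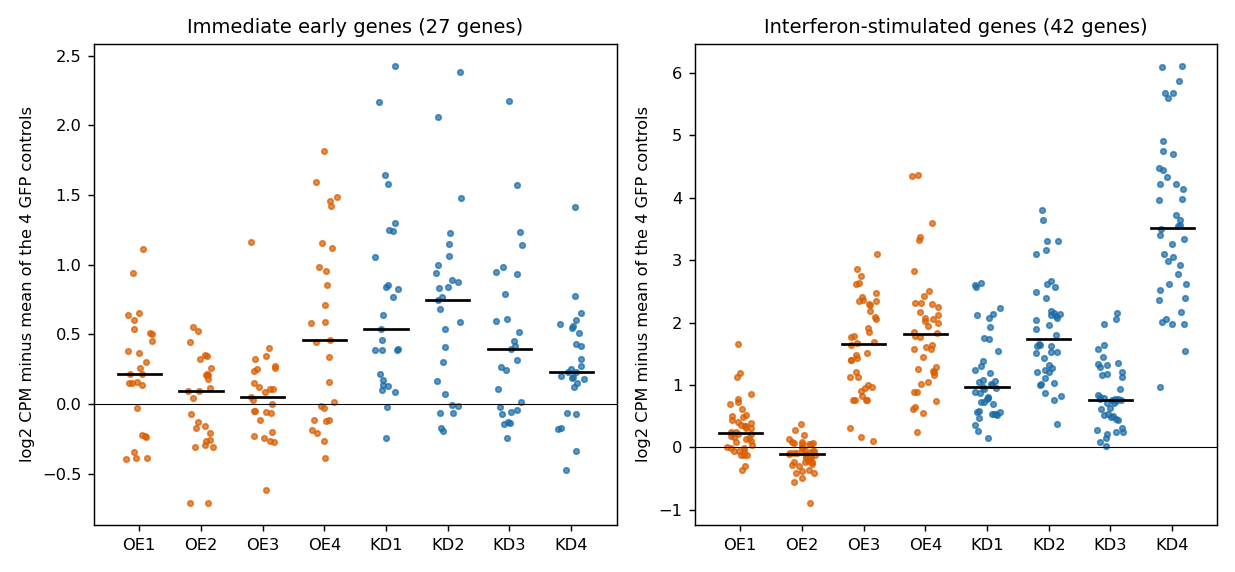
Each point is a gene of the immediate early list (left) or the interferon-stimulated list (right), as log2 CPM minus the mean of the 4 GFP controls, in overexpression 1 to 4 (orange) and knockdown 1 to 4 (blue), with the median as a line. Knockdown 4 stands at a median of 3.52 in the interferon list, and overexpression 4 is the highest overexpression library in both lists.

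Interferon-stimulated genes had mostly lower values in overexpression than in knockdown, with libraries of both groups spread widely. Of 42 listed and tested, 38 differences were negative and 4 positive, and the median was -1.15. In this list 23 were lower at an unadjusted edgeR p below 0.05 (beside 2.32% of all genes) and 0 higher (beside 2.78%). With the edgeR quasi-likelihood test and limma-voom 0 passed adjustment, and with DESeq2 1 did (Ifi27). The edgeR likelihood ratio test called Ifi27 too. Only Ifi27 had libraries without overlap (2.38% of the list, beside 1.14% of all genes).

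Ifi27, a mitochondrial and nuclear membrane protein induced by interferon, was 30.3, 25, 34.4 and 51.1 CPM in overexpression 1 to 4 and 52.6, 74, 52.2 and 89.1 CPM in knockdown 1 to 4 (-0.93 ± 0.21, edgeR adjusted p = 0.855). Controls at 28 to 33.4 CPM lay within the overexpression range. Ifit1, whose promoter is printed above, was 4.06, 2.9, 16.9 and 14.3 CPM against 15, 29.7, 9.38 and 202 CPM, with knockdown 4 far above all others (-2.76 ± 0.90). Oasl2, an oligoadenylate synthetase-like protein, was 5.22, 3.94, 24 and 33.7 CPM against 28.8, 66.3, 19.7 and 325 CPM (-2.74). Knockdown 3 lay below overexpression 3 and 4 for this gene. Irf9, a subunit of the interferon-activated transcription factor, was 10.3, 7.77, 20 and 20.7 CPM against 22.6, 37.3, 19 and 87.7 CPM (-1.51). Isg15, a ubiquitin-like modifier, had the most negative difference of the list (-2.83).

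Per library, the median interferon-stimulated gene stood 0.24, -0.11, 1.65 and 1.81 above the control mean on the log2 scale in overexpression 1 to 4, and 0.96, 1.73, 0.77 and 3.52 in knockdown 1 to 4. All 42 members were above the control mean in overexpression 3 and 4 and in every knockdown library, against 32 and 12 in overexpression 1 and 2. Thus 6 of 8 libraries had all members above the control mean, overexpression 1 and 2 were the lowest and knockdown 4 was the highest. Control libraries 1 to 4 had 38, 11, 30 and 3 members above that mean, with medians of 0.245, -0.07, 0.16 and -0.32. The list medians of overexpression 1 and 2 thus lay within the range of the controls. Single members such as Iigp1 and Gbp2 in overexpression 1 stood above every control. Members move together within a library, so these counts are not independent. Without knockdown 4 the median was -0.22, with 3 members lower and 1 higher at an unadjusted p below 0.05. Without overexpression 4 and knockdown 4 it was -0.47 with 11 lower, and without knockdown 1 and 3 it was -1.90 with 34 lower.

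A few members of the list had the opposite sign. Gbp2, Igtp, Iigp1 and Zbp1 were the 4 members with positive differences, of 1.02, 0.41, 0.33 and 0.17. The first 3 are GTPases best known as targets of interferon gamma. Without overexpression 4, only 1 of the 42 members was positive and 41 were negative, so most of these signs rest on that library. Gbp2 was 9.37, 3.94, 13.3 and 42.6 CPM in overexpression against 4.51, 8.26, 5.08 and 16.3 CPM in knockdown, so the groups overlapped. Cxcl9, a chemokine induced by interferon gamma, was 2.41, 0.0917, 0.788 and 18.8 CPM against 0, 0.593, 0.114 and 0.255 CPM (4.46 ± 1.29, edgeR adjusted p = 0.855). A gene this low passes the expression filter more readily when it is high in overexpression, so its sign is no support for a difference. The class I presentation genes had a median of 0.08 over 17 members, 11 of them positive, which was -0.34 without overexpression 4 and 0.44 without knockdown 4.

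The class II list had its highest scores in overexpression 4 and 1, at 2.74 and 1.02. Overexpression 2 had the lowest list score of its group, -0.38, within the knockdown range of -0.71 to 0.01. The list, Ctss included, summed to 102 CPM in overexpression 2, below all knockdown libraries (119.7 to 239 CPM), and to 783 CPM in overexpression 4. In overexpression 1 the sum was 221 CPM, below the 239 CPM of knockdown 4. H2-Aa, H2-Ab1, H2-Eb1 and Cd74 in overexpression 2 stood 1.09 to 1.29 above the control mean on the log2 scale. In knockdown these 4 genes stood at -0.32 to 1.31. Of 11 class II genes, 10 differences were positive, and the median was 1.25. Higher at an unadjusted edgeR p below 0.05 were 6 (beside 2.78% of all genes), and 0 were lower (beside 2.32%). With edgeR, DESeq2 and limma-voom 0 passed adjustment, while the edgeR likelihood ratio test called 4 (H2-Aa, H2-Ab1, H2-Eb1 and Cd74). Libraries did not overlap for H2-Aa and H2-Ab1 (18.2%, beside 1.23% of all genes in that direction).

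H2-Aa, the alpha chain of the I-A molecule, was 20.3, 4.25, 8.31 and 105 CPM in overexpression 1 to 4 and 1.94, 4.19, 3.08 and 2.91 CPM in knockdown 1 to 4. Overexpression 2 exceeded the highest knockdown library only narrowly, and the group means were 34.5 ± 47.7 and 3.03 ± 0.922 CPM (SD, n = 4; 3.48 ± 0.84 on the log2 scale, edgeR adjusted p = 0.855). Cd74, the invariant chain that guides these molecules, was 42.2, 9.2, 17.7 and 262 CPM against 3.93, 10.4, 7.62 and 7.19 CPM, so overexpression 2 lay within the knockdown range (3.48 ± 0.87). H2-Ab1, the partner chain of H2-Aa, and H2-Eb1, the beta chain of the separate I-E molecule, had differences of 3.54 and 3.36. Ciita, the coactivator of the class, was 0.885, 0.214, 0.788 and 5.59 CPM against 0.097, 0.277, 0.228 and 0.612 CPM (2.59). H2-DMb1, a peptide loading chain, had a difference of 1.25. Ctss, a protease shared with microglia, had -0.08. Without overexpression 4 the median was 0.73, with 5 of 11 members higher at an unadjusted p below 0.05.

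Genes of antibody-producing and T cells were high in overexpression 1 and 4. Of 28 listed, 13 passed the expression filter, which a gene high in overexpression passes more readily. Their shared positive sign (median 0.49) is therefore no support for a difference of the list. The same limit holds for the 5 that were higher at an unadjusted edgeR p below 0.05 (beside 2.78% of all genes). The median was 0.16 without overexpression 4, with 10 of 13 positive, 0.31 without overexpression 1, 0.95 without knockdown 3 and 0.87 without knockdown 4. Without knockdown 1 and 3, 17 members were tested and 5 were negative. Igkc, the kappa light chain constant region, was 73.8, 3.42, 2.04 and 24.6 CPM in overexpression against 0.728, 1.38, 3.34 and 0.663 CPM in knockdown (3.97 ± 1.01). Overexpression 1 and 4 were high, and the other 2 overexpression libraries lay near the knockdown range. Ighg2b, an antibody heavy chain, was 58.7, 1.22, 0.0716 and 10.7 CPM against 0, 0.277, 1.48 and 0.102 CPM (4.97). Jchain, which links antibodies, had a difference of 2.64, and Cd8a, of killer T cells, 1.88. Immunoglobulin segments share sequence, so their separate values are uncertain. The 15 listed members that were not tested had too few counts in too few libraries.

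Complement genes were positive in 15 of 16 tested members, with a median of 0.38. Of these, 7 were higher at an unadjusted edgeR p below 0.05, beside 2.78% of all genes. Serping1, the C1 inhibitor, was 8.76, 6.21, 13.5 and 16.3 CPM against 2.77, 3.83, 5.33 and 5.97 CPM, without overlap (1.31 ± 0.35). It also belongs to the reactive astrocyte list. C3, the central component, was 3.05, 0.428, 2.33 and 16.5 CPM against 0.582, 0.711, 0.998 and 1.38 CPM (2.57). Without overexpression 4 the complement median was 0.12, with 8 members positive and 8 negative. The C1q genes that microglia make had differences from 0.10 to 0.15.

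Activated microglial genes had a median of 0.22 over 23 tested members, and -0.04 without overexpression 4. Cybb (1.63), Clec7a (1.60) and Lyz2 (0.80) were higher at an unadjusted edgeR p below 0.05, beside 2.78% of all genes. Homeostatic microglial genes had a median of -0.12 with 14 of 20 negative, which was 0.03 without knockdown 4 and -0.27 with 20 of 20 negative without overexpression 4. Reactive astrocyte genes were positive in 21 of 25 tested members, with a median of 0.39, or 0.16 without overexpression 4. The other 4 were negative, and Lcn2, a reactive astrocyte marker, had the most negative difference of the list (-0.96). Gfap, the intermediate filament of astrocytes, was 184, 96, 218 and 281 CPM against 98.7, 133, 127 and 88.6 CPM, so overexpression 2 lay inside the knockdown range (0.80 ± 0.25). Vim, another filament gene, had 0.57, and general astrocyte markers a median of -0.03 over 17 genes.

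**Figure D3:**
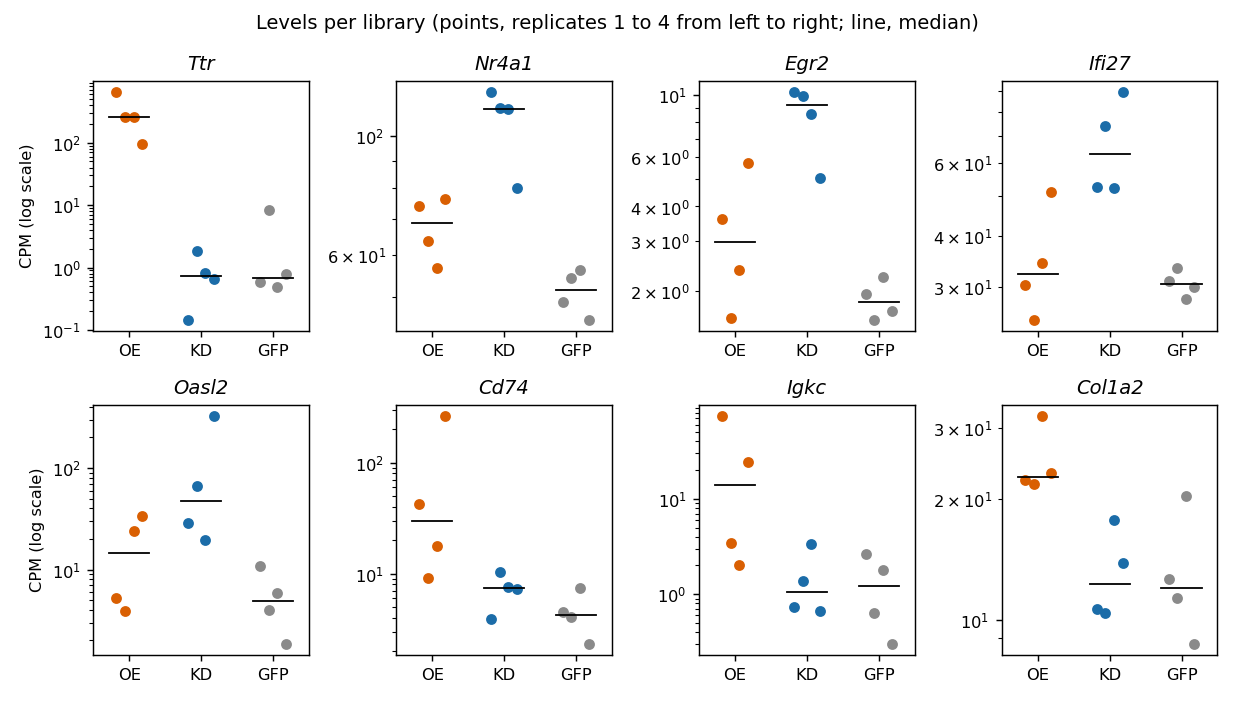
CPM on a log scale for 8 genes in overexpression (OE), knockdown (KD) and GFP control libraries, each point a library and the line the median. Ttr, Nr4a1, Ifi27 and Col1a2 separate overexpression from knockdown without overlap, while Oasl2, Cd74 and Igkc are spread over single libraries.

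Genes of the meninges and vessel sheath had mostly higher values in overexpression, and all 4 overexpression libraries scored above all 4 knockdown libraries. Of 20 genes of meningeal and perivascular fibroblasts, 19 differences were positive, and the median was 0.92. Among them 13 were higher at an unadjusted edgeR p below 0.05 (beside 2.78% of all genes) and 0 lower (beside 2.32%). For 6 genes (30%, beside 1.23% of all genes) the libraries did not overlap: Col3a1, Igfbp2, Col1a2, Dcn, Lum and Col1a1. Across the 12 settings with a library left out, the median stayed between 0.66 and 1.09, while the count of members at an unadjusted p below 0.05 was 6 without overexpression 3, 7 without knockdown 1 and 8 without knockdown 2. Without overexpression 4 and knockdown 4 the median was 0.96, and without knockdown 1 and 3 it was 1.06.

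Igfbp2, which binds insulin-like growth factors, was 25.4, 30.2, 35.2 and 39.4 CPM in overexpression 1 to 4 and 19, 21.8, 24 and 21 CPM in knockdown 1 to 4 (0.60 ± 0.14). Its 2 groups did not overlap, and overexpression 1 exceeded knockdown 3 by a small margin. Col1a2, a chain of fibrillar collagen, was 22.2, 21.8, 32.2 and 23.2 CPM against 10.6, 10.4, 17.8 and 13.9 CPM (0.91 ± 0.24). Col3a1 was 2.84, 2.69, 6.3 and 4.62 CPM against 0.728, 1.26, 2.51 and 1.28 CPM (1.45). In these collagens overexpression 3 and knockdown 3 were the highest of their groups. Dcn and Lum, small matrix proteoglycans, had differences of 0.76 and 0.96. Slc22a6, Slc13a4 and Slc6a13, transporters of meningeal cells, had 1.15, 1.25 and 0.73. Ptgds, the prostaglandin D synthase that also binds retinoids, was 379, 595, 743 and 518 CPM against 182, 173, 514 and 300.3 CPM, so knockdown 3 overlapped (0.93).

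Summed over the list, levels were 804 to 1274 CPM in overexpression, 452 to 910.2 CPM in knockdown and 414 to 737 CPM in controls. Scores of the list ranged from 0.44 to 1.13, from -0.65 to 0.39 and from -1.27 to 0.27, so that overexpression lay above both other groups in every library. Col1a2 in controls was 8.72 to 20.3 CPM, across the whole knockdown range. The share of meninges in each dissected piece was not tested.

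Smooth muscle and pericyte genes were positive in 16 of 19 members, with a median of 0.28. Of the positive members, 8 had an unadjusted edgeR p below 0.05, beside 2.78% of all genes. Acta2, the actin of smooth muscle, was 9.25, 7.58, 20.4 and 12.1 CPM against 6.21, 5.53, 7.39 and 8.98 CPM, overexpression 3 being highest (0.81), and Tagln had 0.88. Without overexpression 3 the median was 0.13 and 2 of 18 tested members were at an unadjusted p below 0.05. Endothelial genes had a median of 0.00 over 19 members, 10 positive and 9 negative. Macrophages of the brain borders were marked by Mrc1, a mannose receptor, at 7.42, 6.18, 8.92 and 5.51 CPM against 3.49, 3.24, 4.39 and 4.29 CPM, without overlap (0.86 ± 0.21). Stab1, a scavenger receptor, likewise did not overlap (0.36). These were 2 of 11 tested members (18.2%), beside 1.23% of all genes in that direction. At an unadjusted edgeR p below 0.05, 4 of the 11 were higher (beside 2.78% of all genes), or 2 without overexpression 3. The median over 11 tested genes of these macrophages was 0.28, and -0.04 without overexpression 3. Defining members Lyve1 and Cd163 had differences of -0.04 and 0.01.

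Matrix genes as a list, which shares members such as Col1a1, Col1a2 and Col3a1 with the meningeal list, were positive in 20 of 21 tested members (median 0.27). The exception was Sparc, a matrix-binding protein that glia and endothelium also make, at 129, 127, 140.1 and 141 CPM against 150.2, 164, 154 and 169 CPM, without overlap in the lower direction (-0.24 ± 0.07). P4ha1, a collagen prolyl hydroxylase that many cell types use, was 41.7, 40, 40 and 40 CPM against 49, 44.7, 46.3 and 50 CPM (-0.23 ± 0.05), also without overlap.

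**Figure D4:**
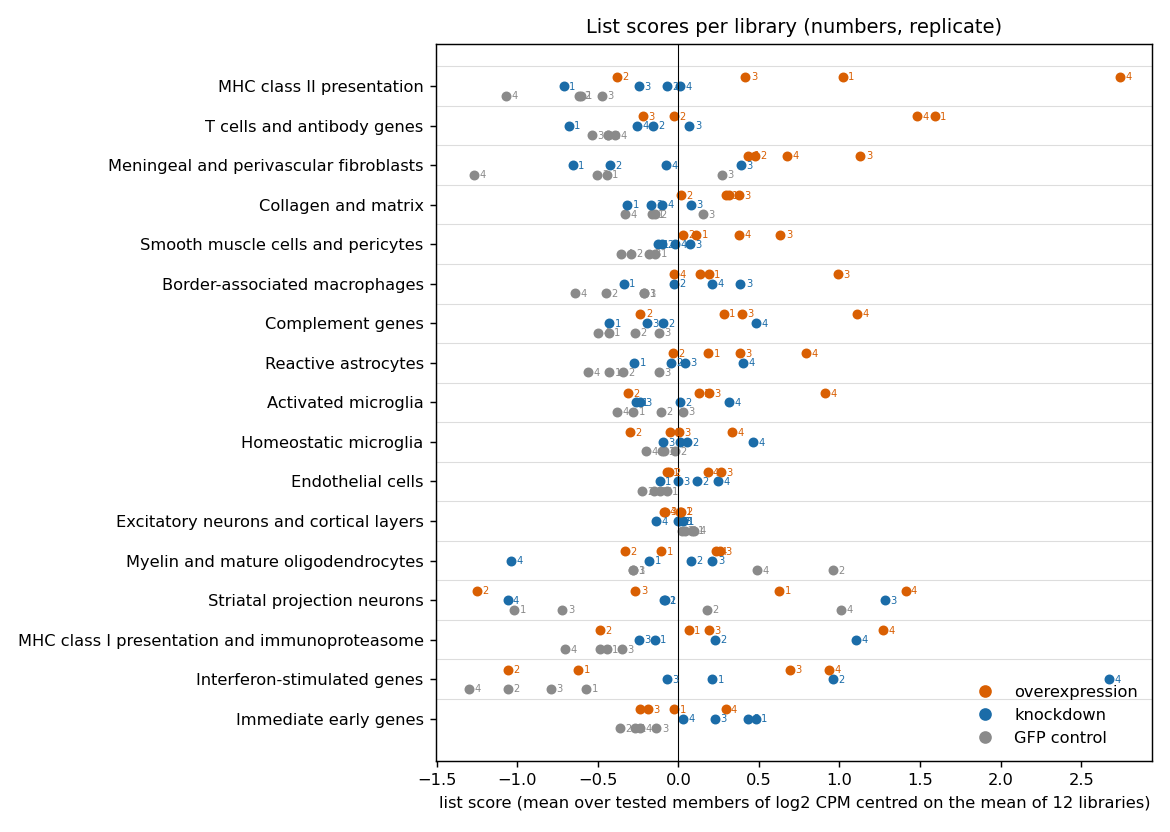
Scores of 17 lists (mean of centred log2 CPM over tested members, horizontal axis) in each of the 12 libraries, numbered by replicate and coloured by group. The meningeal list places all 4 overexpression libraries above all knockdown libraries, whereas the class II and interferon lists are led by overexpression 4 and knockdown 4.

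Genes of the ligands and partners of transthyretin had small list medians. Of 17 retinoid genes tested, 11 differences were positive and 6 negative (median 0.03). Aldh1a2, which makes retinoic acid in the meninges, was 9.8, 7.86, 16 and 10.2 CPM against 2.28, 3.04, 8.02 and 3.98 CPM (1.31 ± 0.41), the only member at an unadjusted p below 0.05, and it also belongs to the meningeal list. Rbp4, the retinol-binding partner of transthyretin, was 13.3 to 18.5 CPM against 16.8 to 19.8 CPM (-0.18). Thyroid hormone genes were negative in 13 of 16 (median -0.08), among them Slc7a8, a transporter (-0.14), Dio3, the deiodinase that inactivates the hormone (-0.80), and Thra, its receptor (-0.16). Scores of this thyroid list did not overlap between overexpression (-0.12 to -0.03) and knockdown (-0.006 to 0.09). Controls, at -0.06 to 0.09, overlapped both groups. Only Slc7a8 had an unadjusted edgeR p below 0.05, and 0 members had libraries without overlap. Genes of vitamin B12 and folate metabolism had a median of -0.02 over 22 members.

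Neuronal lists had small medians or wide spreads between libraries. Excitatory neuron and layer genes had a median of 0.01 over 25 members and synaptic vesicle genes -0.01 over 24, while interneuron genes had -0.08 over 21. Striatal projection neuron genes had a median of 0.19 with 17 of 20 positive, but the scores of single libraries ran from -1.25 to 1.41 in overexpression and from -1.06 to 1.28 in knockdown, and the median was -0.55 without overexpression 4 and knockdown 4 and 0.94 without knockdown 1 and 3. Myelin genes were positive in 22 of 22 members with 0 at an unadjusted p below 0.05 (median 0.16, or -0.05 with 14 negative without knockdown 4). All 5 red blood cell genes were negative (median -0.33), and mitochondrially encoded genes had -0.16 over 13 members, or -0.04 without knockdown 4, whose summed level of 60834 CPM was the highest (43488 to 47702 CPM in knockdown 1 to 3). Genes of the choroid plexus, the main brain source of Ttr, had a median of 0.23 over 10 tested of 18 listed, with 0 at an unadjusted p below 0.05, and ependymal genes 0.22 over 13 (-0.17 without overexpression 3). Chemokines had 0.17 over 9 tested of 18 listed, which ran from -0.03 without overexpression 4 to 0.45 without control 4 (11 tested). The limit set by the expression filter, given above for antibody genes, holds for chemokines too. Oligodendrocyte precursor (-0.02), oxidative phosphorylation (-0.03), unfolded protein (0.004), heat shock (-0.05), p53 response (0.03) and stress peptide genes (-0.08) had medians close to that of all genes.

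Besides the genes placed above, the rule for the smallest p-values named these. Clec3b, a plasma protein, and Aox3, an aldehyde oxidase, were higher in overexpression without overlap (1.14 and 1.28). Arr3, an arrestin of cone cells, was 0.799 to 1.04 CPM against 0.388 to 0.561 CPM (1.09), Gja5, a gap junction protein of arterial cells, had 1.46 and Notum, a Wnt-inactivating enzyme, 0.85. Gm14443 (0.62), A230004M16Rik (1.43) and Nhlrc3 (0.25) complete the higher genes. Stk40, a kinase-like protein, was 29.6 to 36.6 CPM against 39.9 to 43.5 CPM without overlap (-0.34), and Midn (-0.36), Trp53i11 (-0.27), Rpl6l (-0.32) and 4930481A15Rik (-0.62) were also lower. All of them had an edgeR adjusted p of 0.855.

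**Figure D5:**
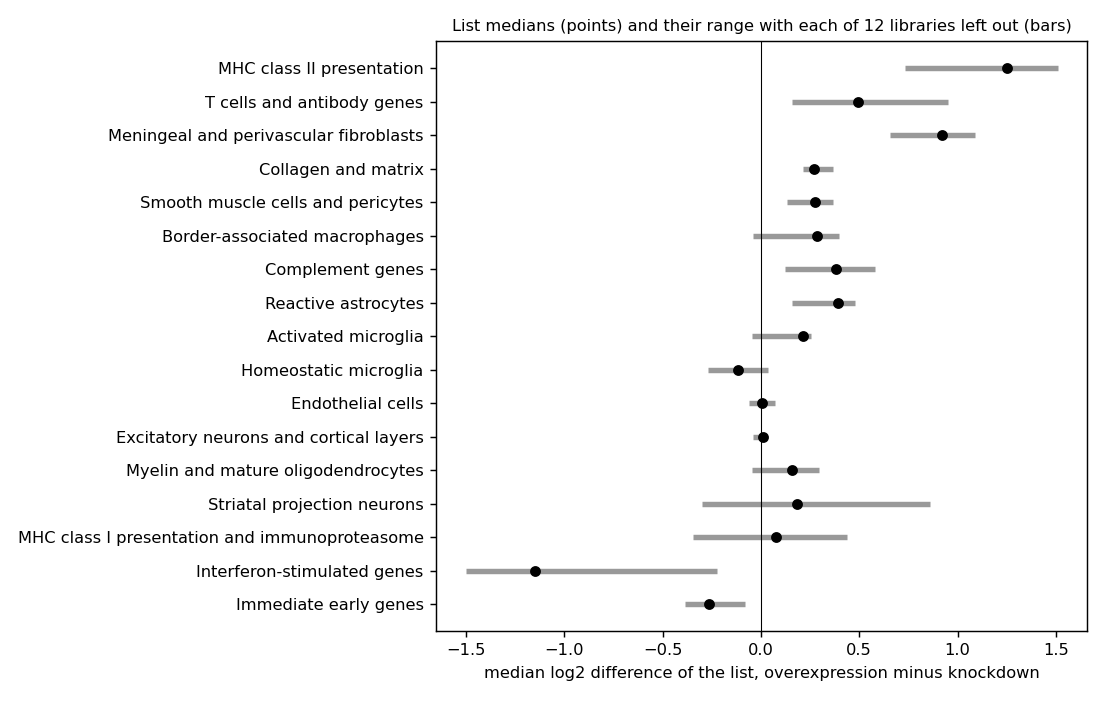
Median log2 difference between overexpression and knockdown for 17 lists (points), with the range of the median when each of the 12 libraries is left out (bars). The bars of the meningeal, matrix and smooth muscle lists stay above 0, those of the interferon and immediate early lists stay below 0, and the striatal and class I bars cross 0.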

How the data were processed

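Each library started from 500 ng of RNA, selected for poly(A), with a directional kit and adaptors carrying molecular identifiers, per the labels' protocols. Per the submitters' processing notes, featureCounts, UMI-tools, DESeq2, bcl2fastq 2.20.0.422 and the build GRCm38 (mm10) were used, in roles and order not stated. Neither the aligner nor the strand setting nor the use of the identifiers is given in the sources used here. The authors deposited whole-number counts per gene, not normalized, and TPM values, which equalled the counts divided by a fixed length per gene and scaled (100% of values within 0.01 on the log2 scale). Of 55401 identifiers 55141 were matched to symbols, with coordinates from GENCODE.

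Counts were tested with edgeR 4.0.16 (R 4.3.3): TMM factors, the default filter by group, a fit of 3 group means over 12 libraries, the quasi-likelihood test of overexpression against knockdown, and Benjamini-Hochberg adjustment over 18289 genes at 0.05. CPM were computed here. Lists (36) are given by counts and medians. The comparison and the lists were chosen with earlier results of these data known. Named genes were Ttr, the 15 with the smallest p per direction and the 4 with the smallest p of each list with a median beyond 0.15 or with such genes. Other members were named after their values were seen, and some list members are not reported here. Replicates differed by more than sampling noise in every pair (chi-square per degree of freedom 9.16 to 28.4). Close copies (hemoglobin, immunoglobulin and Ifit genes) and genes overlapping on either strand are uncertain. Alternatives used DESeq2 1.42.0, limma 3.58.1 and left-out libraries. Steps were tested on simulated data. Figures used Python 3.11.15 and matplotlib 3.10.9.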

Additional observations from a re-analysis of the deposited data

Results flagged for a closer look

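Of 266 groups of 4 values checked, 10 had a highest or lowest library set apart from the others, where chance flags about 1 in 20. In overexpression, P4ha1 was 41.7 CPM in library 1 beside 40 in the others, and Klf10 was 48.2 CPM in library 2 beside 36.8 to 38.2. In overexpression 3, Col1a2 was high at 32.2 CPM (21.8 to 23.2 in the others), and Per1 and Hba-a1 were low at 60.9 CPM (70.2 to 71.6) and 64.6 CPM (93 to 94). In knockdown 4, Klf10 was low at 44.8 CPM (60.1 to 62.8), Mt2 was high at 124 CPM (68.5 to 75.3) and the score of excitatory neuron genes was low at -0.139 (-0.00115 to 0.0272). Vim was low in knockdown 1 at 27.5 CPM (35.5 to 36.2), and the score of retinoid genes was high in knockdown 3 at 0.32 (-0.111 to -0.054).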

How the results depend on the processing

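The direction of Ttr was the same in every alternative run. The number of genes passing was 4 with DESeq2 (Ttr, Nr4a1, Ifi27 and Ccl8), 8 with the edgeR likelihood ratio test, 3 with limma on log2(TPM + 0.5) without a filter, and 0 with limma-voom (Ttr 8.51, adjusted p = 0.713) and with a robust prior (Ttr 8.42, adjusted p = 0.355). The same-numbered libraries did not deviate together (correlations of -0.086 to 0.038), so the replicate block is an alternative only: 2 genes passed in the paired fit of 12 libraries and 2 in that of 8, where 276 genes were lower at an unadjusted p below 0.05. Genes higher and lower at that p were 1006 and 492 without a filter, 589 and 304 with library size only, 807 and 182 with limma on log2(TPM + 0.5), 786 and 181 with log2(TPM + 0.1), and 1356 and 445 without a filter there. With each library left out in turn, the number passing was 0 to 2, the log2 difference of Ttr 7.81 to 9.04, and genes at that p numbered 330 to 685 higher and 310 to 585 lower. Of the settings chosen after seeing the data, 0 genes passed without knockdown 1 and 3 (Ttr 7.89, adjusted p = 0.506) and 6 without overexpression 4 and knockdown 4. The cause of these shifts was not tested. The number of libraries and the low counts of Ttr in knockdown limit the precision.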
